A study of Mus musculus with 6 samples.

Results

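The CD300 receptor family was examined in mouse lung through 7 genes, Cd300lg, Cd300a, Cd300c, Cd300e, Cd300lb, Cd300ld and Cd300lf, found by their symbols among the 41388 genes of the count table. The family was chosen by the difference of Cd300lg between the genotypes, which had the smallest p-value of all genes. The KO to WT values of the members are therefore given as a description, with no test, and nothing is supported with them. Lungs came from adult wild type C57BL/6J mice (WT) and from adult mice with a deletion of exons 1 to 3 of Zpbp2 (KO), a single targeted line whose strain name begins with B6.129S7 and which was kept on the C57BL/6J background in 1 colony with the controls. The labels name no treatment, and all lungs were taken at ZT7 (7 h after lights came on). Each genotype had 3 libraries (WT1, WT2, WT3 and KO1, KO2, KO3), and total counts ranged from 59134950 to 71354388.

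CD300 proteins are cell surface receptors with a single extracellular immunoglobulin-like domain. Most are found on myeloid cells, where some carry inhibitory tyrosine motifs that recruit phosphatases and others pair with adaptor proteins that pass on an activating signal, and several bind lipids exposed on dying cells. Cd300lg (also called nepmucin) differs in being a mucin-like protein of endothelial cells, known for a part in the binding of lymphocytes to vessel walls.

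Some libraries resembled each other and others stood apart. KO2 and KO3 differed by little more than counting noise, with a median variance 1.94 times the counting variance among genes with 2000 to 20000 counts in the pair. The same ratio was 9.27 between WT1 and WT2, and between KO1 and KO2 it was 21.1. KO2 and KO3 were therefore summed and counted as 1 sample, giving n = 3 for WT and n = 2 for KO, where the second KO value is the mean of KO2 and KO3. The labels give KO2 and KO3 as separate samples, and whether they hold 1 RNA sequenced again was not tested. WT3 and KO1 were separated from the other 4 libraries by the first principal component, which held 66.8% of the variance. The labels were checked with Zpbp2, which had 20, 15 and 7 counts in the WT libraries, while KO1, KO2 and KO3 had 1, 0 and 0. The surfactant gene Sftpc, at 12103 CPM or more, and the club cell gene Scgb1a1, at 23360 CPM or more, were abundant in every library (CPM, a gene's count scaled to a common library size).

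Cd300lg (ENSMUSG00000017309) occupies 102041509 to 102055620 on the plus strand of chromosome 11 (GRCm38). The WT libraries held 1973, 1813 and 1609 counts of Cd300lg, and the KO libraries held 305, 343 and 326. Scaled to library size these were 26.9, 25.8 and 26.8 CPM in WT and 4.84, 5.53 and 5.58 CPM in KO. Every KO library was far below every WT library, and the 3 WT libraries lay within a narrow band although WT3 stood apart in the whole transcriptome. Cd300lg averaged 26.5 ± 0.629 CPM in WT (SD, n = 3) against 5.20 ± 0.505 CPM in KO (SD, n = 2), so that KO held 19.6% of the WT level, a 5.10-fold difference. On the log2 scale this was a difference of -2.35 (SE 0.10).

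Of the 7 members, all of which passed the filter on low counts, Cd300lg alone had an adjusted p of at most 0.05 in the edgeR fit over all genes, where 2.28% of 18660 genes did, 1.38% higher and 0.906% lower in KO. Nothing is read from that count, since this contrast chose the gene. In 5 members every KO library was below every WT library, against 20.7% of all tested genes, and in Cd300c and Cd300lf the genotypes overlapped. The median log2 difference was -0.31 over the 7 members and 0.02 over all tested genes. All 7 estimates were below 0, as were 47.8% of all estimates. Without WT3 and KO1, the number of members with no overlap was again 5, and the share of all genes was 34.0%. The study had itself listed Cd300lg as lower in KO from these libraries. In its separate lung experiment at a later hour, the study listed Cd300lg as lower but Cd300a and Cd300e as higher in KO.

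**Figure D1:**
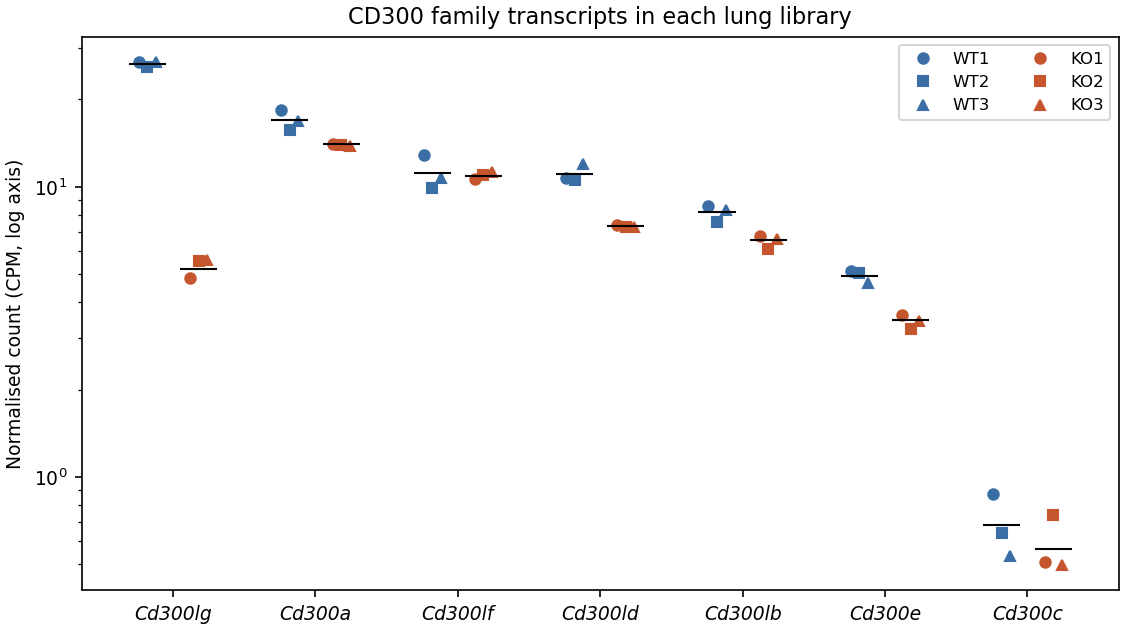
Normalised counts (CPM, log axis) of the 7 CD300 members in each library, WT in blue and KO in orange, with the replicate number by symbol and the group mean as a black line. Cd300lg shows the widest gap, with 25.8 to 26.9 CPM in WT and 4.84 to 5.58 CPM in KO, and the genotypes overlap for Cd300lf and Cd300c.

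Levels of different genes were compared after division by the exon length in kilobases (CPM per kb). In WT, Cd300lg was the highest member at 9.69 ± 0.230 CPM per kb (SD, n = 3), followed by Cd300ld at 4.19 ± 0.289, Cd300a at 3.58 ± 0.284, Cd300lb at 2.80 ± 0.188, Cd300e at 2.37 ± 0.114, Cd300lf at 2.17 ± 0.299 and Cd300c at 0.641 ± 0.163 CPM per kb. Among neighbours in this order, the WT libraries overlapped only between Cd300e and Cd300lf. In KO the order was Cd300a at 2.95 ± 0.0257 CPM per kb (SD, n = 2), Cd300ld at 2.77 ± 0.0350, Cd300lb at 2.25 ± 0.0994, Cd300lf at 2.11 ± 0.0692, Cd300lg at 1.90 ± 0.185, Cd300e at 1.67 ± 0.0941 and Cd300c at 0.529 ± 0.0738 CPM per kb. There the libraries of neighbours overlapped only between Cd300lb and Cd300lf. Cd300lg thus moved from the first to the fifth place. Its share of the summed length-scaled level of the 7 members was 37.2, 38.9 and 38.4% in WT1 to WT3, and 12.5, 14.3 and 14.3% in KO1 to KO3. The other 6 members together summed to 56.5, 49.4 and 53.0 CPM in WT and 43.0, 42.2 and 43.0 CPM in KO, so the KO libraries were lower here too.

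**Figure D2:**
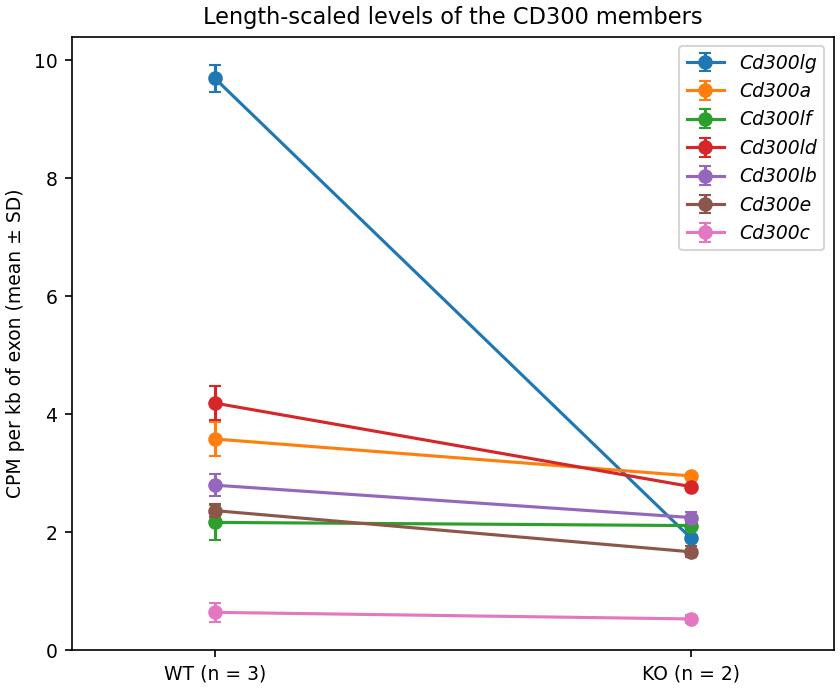
Length-scaled levels (CPM per kb of exon, mean ± SD) of the 7 members in WT (n = 3) and KO (n = 2), joined by a line per gene. Cd300lg goes from 9.69 to 1.90 CPM per kb, between Cd300lf and Cd300e, while Cd300ld goes from 4.19 to 2.77, Cd300e from 2.37 to 1.67, and the line of Cd300lf is nearly flat.

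Among the myeloid members the inhibitory receptors come first. Cd300a (ENSMUSG00000034652, plus strand, 114890041 to 114904654), an inhibitory receptor that binds phosphatidylserine and phosphatidylethanolamine, was at 18.4, 15.7 and 16.8 CPM in the WT libraries and at 14.1, 13.9 and 13.9 CPM in the KO libraries. The KO libraries lay close together, below the lowest WT library, and the log2 difference was -0.27 (SE 0.10). Cd300lf (ENSMUSG00000047798, minus strand, 115116214 to 115133992), an inhibitory receptor known to bind ceramide, was at 12.9, 9.88 and 10.7 CPM in the WT libraries and at 10.6, 10.97 and 11.3 CPM in the KO libraries. WT1 was highest and WT2 lowest of the 6 libraries, so the genotypes overlapped, and the log2 difference was -0.03 (SE 0.14). Cd300lf lies within Rab37 on the other strand with 0 shared exon bases. If counting ignored the strand, intron reads of Rab37 could not be told from reads of Cd300lf, and Rab37 was at 3.50, 3.37 and 2.84 CPM in WT1 to WT3 and 2.71, 2.16 and 2.60 CPM in KO1 to KO3.

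Receptors that signal through adaptors come next. Cd300ld (ENSMUSG00000034641, minus strand, 114982274 to 114989922), which pairs with the Fc receptor gamma chain, was at 10.7, 10.6 and 12.0 CPM in the WT libraries and at 7.40, 7.25 and 7.28 CPM in the KO libraries. After Cd300lg it had the widest log2 difference among the members, -0.59 (SE 0.10). Cd300e (ENSMUSG00000048498, minus strand, 115051917 to 115062177), an activating receptor of monocytes, was at 5.12, 5.02 and 4.67 CPM in the WT libraries and at 3.62, 3.24 and 3.44 CPM in the KO libraries. The groups were separate, and the log2 difference was -0.50 (SE 0.12).

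Cd300lb (ENSMUSG00000063193, minus strand, 114922781 to 114934386), an activating receptor that uses the adaptor encoded by Tyrobp, was at 8.60, 7.54 and 8.32 CPM in the WT libraries and at 6.76, 6.09 and 6.61 CPM in the KO libraries. Its groups were separate by less than 1 CPM, and the log2 difference was -0.31 (SE 0.11). Cd300c (ENSMUSG00000058728, minus strand, 114956116 to 114969157), also an activating receptor, had only 64, 45 and 32 counts in the WT libraries and 32, 46 and 29 in the KO libraries. At these counts the genotypes overlapped, with a log2 difference of -0.26 (SE 0.29), and a difference as small as that of Cd300a was within its error.

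**Figure D3:**
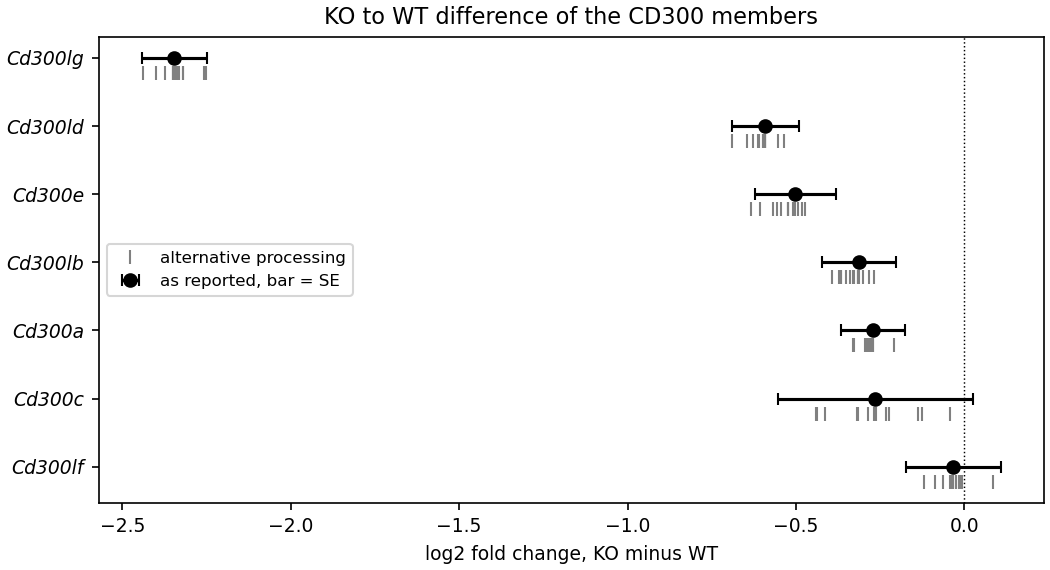
Difference between KO and WT on the log2 scale for each member, with the SE as a bar (black points) and the values under the other processing choices as grey ticks. Cd300lg lies at -2.35, the other 6 members lie between -0.59 and -0.03, and only the ticks of Cd300lf cross 0.

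Near-identical copies can share reads. Of all 75-base stretches in the annotated transcripts of Cd300lg, Cd300c, Cd300e and Cd300lb, 0 recurred in a transcript of another gene, while 1.79% of those of Cd300a, 2.33% of Cd300ld and 1.12% of Cd300lf did. The read length was not given in the sources used here. The table held 5 more CD300 genes, all in the cluster that the 6 myeloid members form from 114890041 to 115133992. Cd300c2, listed there as AF251705, was at 11.3, 11.7 and 10.99 CPM in the WT libraries and at 11.05, 12.1 and 12.4 CPM in the KO libraries. Its genotypes overlapped, with a log2 difference of 0.05 (SE 0.09) and an edgeR adjusted p of 0.790. Cd300ld3, listed as Cd300lh, had 23, 20 and 13 counts in the WT libraries against 7, 27 and 14 in the KO libraries. Cd300ld2, Cd300ld4 and Cd300ld5 had at most 7 counts in a library. The Cd300ld2 to Cd300ld5 copies share 22.2% to 100% of their 75-base stretches with another gene, so their counts are uncertain.

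Promoter sequences were looked up for the members that lay apart between the genotypes. RefSeq (GRCm38.p6) matched 6 of the 7 members, all but Cd300lg. The 250 bases before the RefSeq start follow for the 4 myeloid members whose KO libraries were all below all WT libraries, 5′ to 3′ on the strand of the gene, with matches to GGAAGT on either strand in capitals. GGAAGT holds the core that ETS factors recognise, among them PU.1, the myeloid factor encoded by Spi1, and the longer match GAGGAAGT contains it. Both motifs were chosen after the sequences had been seen.
Cd300ld, chr11:114989887-114990136, minus strand: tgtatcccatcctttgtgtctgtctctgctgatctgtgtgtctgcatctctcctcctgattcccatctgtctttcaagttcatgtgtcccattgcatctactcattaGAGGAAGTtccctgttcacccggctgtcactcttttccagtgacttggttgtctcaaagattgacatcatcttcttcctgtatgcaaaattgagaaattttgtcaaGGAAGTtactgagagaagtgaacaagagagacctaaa
Cd300e, chr11:115062040-115062289, minus strand: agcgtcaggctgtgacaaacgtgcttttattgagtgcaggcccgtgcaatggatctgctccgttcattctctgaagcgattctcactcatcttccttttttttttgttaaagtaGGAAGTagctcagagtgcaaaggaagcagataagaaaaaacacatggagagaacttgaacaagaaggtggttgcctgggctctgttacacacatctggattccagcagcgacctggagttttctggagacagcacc
Cd300lb, chr11:114934372-114934621, minus strand: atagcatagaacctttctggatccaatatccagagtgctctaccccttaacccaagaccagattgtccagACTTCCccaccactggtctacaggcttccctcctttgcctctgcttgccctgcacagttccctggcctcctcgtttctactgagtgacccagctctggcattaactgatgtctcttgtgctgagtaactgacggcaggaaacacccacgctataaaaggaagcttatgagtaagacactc
Cd300a, chr11:114889791-114890040, plus strand: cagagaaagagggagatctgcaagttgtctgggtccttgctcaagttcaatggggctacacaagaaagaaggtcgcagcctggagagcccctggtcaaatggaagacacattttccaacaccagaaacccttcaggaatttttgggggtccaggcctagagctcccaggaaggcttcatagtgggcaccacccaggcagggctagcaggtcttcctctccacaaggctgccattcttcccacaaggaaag

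Cd300ld had 2 matches to GGAAGT, of which 1 was the longer GAGGAAGT, Cd300e and Cd300lb had 1 match each, that of Cd300lb on the opposite strand, and Cd300a had 0. Of 32851 promoters of the same length, 19.7% held GGAAGT and 2.44% held GAGGAAGT on either strand. Cd300lf, whose genotypes overlapped, also had 1 match to GGAAGT, and Cd300c had 0. Cd300c2, whose genotypes overlapped as well, had 1 match, and Cd300ld3, Cd300ld4 and Cd300ld5 each had 2 matches of which 1 was GAGGAAGT, as Cd300ld did. These matches describe letters in the window only. Spi1 itself was at 28.5, 24.6 and 29.5 CPM in the WT libraries and at 28.5, 28.0 and 29.5 CPM in the KO libraries, overlapping between the genotypes (edgeR adjusted p 0.728).

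Signalling partners of the family were compared next. All 12 listed genes were tested and 0 were called by edgeR, that is at an adjusted p of at most 0.05, whereas 5 had a raw p up to 0.05 and DESeq2, another count model, called 4. Among all 18660 tested genes 27.3% had a raw p up to 0.05 and DESeq2 called 20.8%, which is the background for these counts in every list. The median of the partners was -0.07 as a log2 difference and -0.04 without WT3. Tyrobp, the adaptor of several activating members, was at 68.2 to 79.9 CPM in WT and 68.3 to 70.8 CPM in KO, with an edgeR adjusted p of 0.577. Fcer1g, the Fc receptor gamma chain, was at 39.8 to 43.5 CPM in WT and 38.3 to 40.9 CPM in KO, with an adjusted p of 0.682. Both adaptors overlapped between the genotypes. The 12 partners summed to 974 to 1014 CPM in WT and to 896 to 900 CPM in KO, lower in every KO library. In 5 of them every KO library was below every WT library, beside 20.7% of all tested genes, and in 2 every KO library was above. Ptpn11, a phosphatase, and Pik3r1, a subunit of phosphoinositide 3-kinase, had the highest CPM of the list, with log2 differences of -0.14 and -0.32 and adjusted p values of 0.139 and 0.0692.

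Other receptors with a related immunoglobulin-like domain and other genes that recognise phosphatidylserine were listed beside the members. Of 13 tested related receptors edgeR called 0 (2 with a raw p up to 0.05, 2 called by DESeq2), with a median of -0.21, and Pigr and Faim3 had adjusted p values of 0.851 and 0.314. Of 11 tested genes of phosphatidylserine recognition edgeR called 0 (6 with a raw p up to 0.05, 6 called by DESeq2), with a median of -0.17, which was -0.11 without KO1 and -0.04 with an offset for gene length. Anxa5 and Gas6 of that list had log2 differences of 0.18 and 0.27 and adjusted p values of 0.161 and 0.0656.

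Because Cd300lg is an endothelial gene, its level was set beside endothelial markers. The 16 pan-endothelial genes summed to 6204, 5861 and 6247 CPM in the WT libraries and to 6995, 5835 and 5835 CPM in the KO libraries, so the genotypes overlapped. Of these genes 0 were called by edgeR (7 with a raw p up to 0.05, 6 called by DESeq2), and their median log2 difference was 0.11, with a change of sign to -0.03 without KO1. Pecam1 and Cdh5, junction proteins of endothelial cells, had adjusted p values of 0.965 and 0.803. Per 1000 CPM of this sum, Cd300lg was at 4.34, 4.40 and 4.30 CPM in WT and at 0.692, 0.947 and 0.957 CPM in KO. Cd300lg was thus as far apart between the genotypes relative to endothelial transcripts as relative to all transcripts. In whole lung, fewer cells of a type and less RNA per cell cannot be told apart.

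Markers of particular vessels followed. Lists of lung aerocyte, lung general capillary, arterial, venous, lymphatic and high endothelial venule genes had medians of 0.05, -0.09, 0.03, -0.01, -0.04 and -0.09. Leaving out 1 library at a time gave, in the same order, -0.07 to 0.08, -0.14 to -0.05, -0.02 to 0.16, -0.04 to 0.05, -0.20 to -0.02 and -0.11 to 0.00, and the aerocyte, arterial and venous medians changed sign. The arterial median was highest without WT3 and the lymphatic median lowest without KO1. In these lists 0 genes were called by edgeR, with 0 to 5 genes per list at a raw p up to 0.05 and 0 to 4 called by DESeq2. The general capillary list summed to 3923 to 4047 CPM in WT and 3574 to 3839 CPM in KO, lower in every KO library. The arterial list summed to 1719 to 1789 CPM in WT and 1880 to 2075 CPM in KO, higher in every KO library. The sums of the other vessel lists overlapped. Among their most abundant genes, the edgeR adjusted p values were those of Emp2 and Cyp4b1 (0.305 and 0.865), Ptprb and Plvap (0.0501 and 0.109), Mgp and Cxcl12 (0.0512 and 0.486), Vwf and Ephb4 (0.625 and 0.633), Lyve1 and Pdpn (0.935 and 0.192) and Chst2 (0.326). Glycam1 and Madcam1, which define high endothelial venules, reached at most 0.532 and 0.0334 CPM in any library.

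Genes listed for the capillaries of fat, heart and muscle had a median of -0.43 over 14 tested genes, with 4 estimates above 0 and 10 below. Of the 14 genes edgeR called 2, both lower in KO, while 10 had a raw p up to 0.05 and DESeq2 called 9. Among all tested genes edgeR called 2.28%, with 0.906% lower. Whether capillary cells or other cells of these tissues gave these values was not tested. Lpl, the enzyme that frees fatty acids from lipoproteins, fell, with 366 ± 1.65 CPM in WT (SD, n = 3) against 177 ± 1.40 CPM in KO (SD, n = 2), a log2 difference of -1.04 (SE 0.05) and an edgeR adjusted p of 0.0251. Aqp7, a glycerol channel of fat, fell as well, with 6.90 ± 1.60 CPM in WT (SD, n = 3) against 0.733 ± 0.0270 CPM in KO (SD, n = 2), a log2 difference of -3.22 (SE 0.26) and an edgeR adjusted p of 0.0446. These calls, like all others in the fit, were lost when any one WT library was left out. Gpihbp1, which anchors the lipase on capillary endothelium, averaged 142 ± 6.04 CPM in WT (SD, n = 3) against 186 ± 14.2 CPM in KO (SD, n = 2) (edgeR adjusted p 0.0543), and Cd36 and Aqp1 had adjusted p values of 0.144 and 0.597.

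Marker genes of other tissues were set beside Cd300lg. The 20 adipocyte genes summed to 1610, 2255 and 1549 CPM in the WT libraries and to 607, 655 and 658 CPM in the KO libraries, with a median of -1.98. In this list 19 genes had a raw p up to 0.05 and DESeq2 called 18. By edgeR 5 were called, all lower, beside 2.28% of all tested genes called and 0.906% called lower. Among those called were the amine oxidase Aoc3 (log2 difference -2.06, edgeR adjusted p 0.0251), the lipid droplet protein Plin4 (-1.89, 0.0446) and Pck1 (-3.87, 0.0446), while Car3 and Cfd had adjusted p values of 0.0751 and 0.180. The 12 cardiomyocyte genes summed to 7506, 3234 and 2685 CPM in the WT libraries and to 1629, 1388 and 1400.2 CPM in the KO libraries, with a median of -1.40 (-0.72 without WT1) and 0 called by edgeR (8 with a raw p up to 0.05, 6 called by DESeq2). Myh6 and Actc1 of that list had adjusted p values of 0.0965 and 0.194. Within WT, WT1 had the highest cardiomyocyte sum and WT2 the highest adipocyte sum, and Cd300lg was at 25.8 to 26.9 CPM. The part of these tissues in the level of Cd300lg was not tested. The study had itself picked Cd300lg and several of the adipocyte and cardiomyocyte genes from these libraries.

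**Figure D4:**
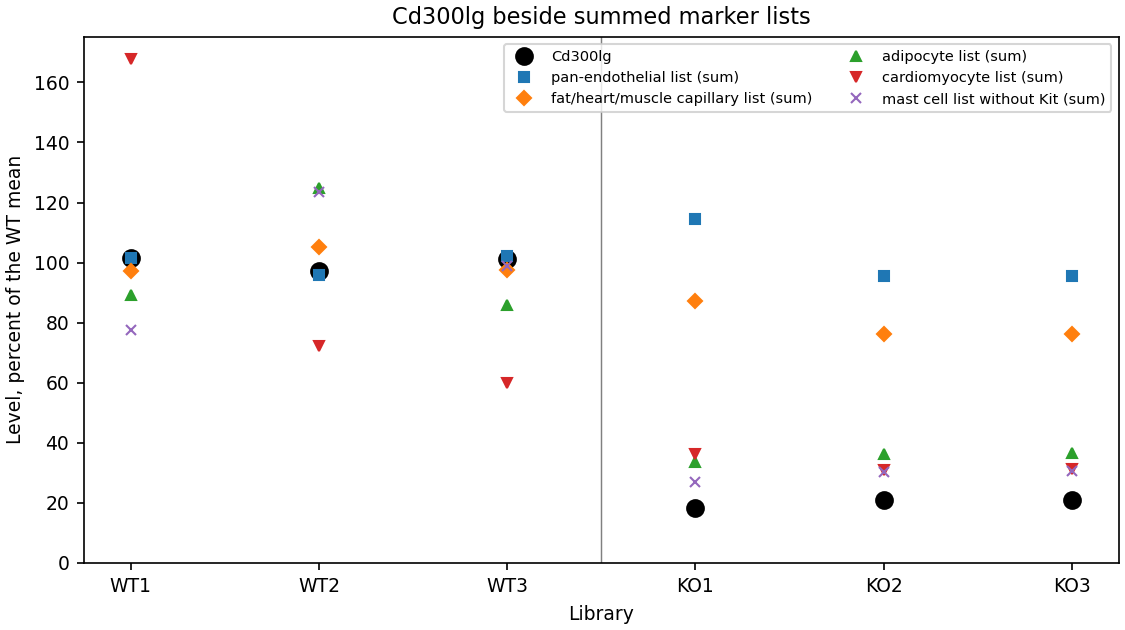
Level of Cd300lg (black) and of summed marker lists in each library, as a percentage of the WT mean of each. In KO, Cd300lg, at 4.84 to 5.58 CPM, lies lowest and the adipocyte and cardiomyocyte sums and the mast cell sum without Kit are also low, whereas the pan-endothelial sum stays near its WT level.

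Several myeloid CD300 receptors are also found on mast cells, whose genes were listed too. Of 8 tested genes 3 were called by edgeR, all lower, beside 2.28% of all tested genes called and 0.906% called lower. In this list 7 genes had a raw p up to 0.05 and DESeq2 called 4, and 3 genes stayed under 1 CPM in every library. Tpsb2, a tryptase, fell, with 4.02 ± 0.857 CPM in WT (SD, n = 3) against 0.903 ± 0.154 CPM in KO (SD, n = 2), a log2 difference of -2.14 (SE 0.26) and an edgeR adjusted p of 0.0446. The proteases Mcpt4 and Cpa3 fell by log2 differences of -2.20 (SE 0.26) and -2.46 (SE 0.36), with edgeR adjusted p values of 0.0446 and 0.0474. Kit, which lung capillaries also express, did not pass (adjusted p 0.464), and Cma1, a chymase, had a log2 difference of -1.33 and an adjusted p of 0.0578. The 8 genes summed to 269.8, 267 and 241 CPM in the WT libraries and to 233, 228 and 230.4 CPM in the KO libraries, nearly all of it Kit. Without Kit, a choice made after the values were seen, the list summed to 12.6, 20.04 and 16.1 CPM in the WT libraries and to 4.35, 4.92 and 4.95 CPM in the KO libraries. In both sums every KO library was below every WT library, by a small margin with Kit, and the part of mast cells in the CD300 values was not tested.

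Monocyte, macrophage and granulocyte genes were set beside the myeloid members. The pan-leukocyte, myeloid, classical monocyte, interstitial macrophage, neutrophil and dendritic cell lists had medians of -0.07, -0.18, -0.37, -0.21, -0.21 and -0.24. Leaving out 1 library at a time gave, in the same order, -0.10 to -0.05, -0.25 to -0.09, -0.40 to -0.24, -0.28 to -0.04, -0.56 to -0.12 and -0.27 to -0.16, with the neutrophil median lowest without KO1 and the myeloid and interstitial macrophage medians nearest 0 without WT3. In these lists 0 genes were called by edgeR, with 1 to 4 per list at a raw p up to 0.05 and 0 to 4 called by DESeq2. Non-classical monocyte genes had a median of -0.22 (-0.14 without WT1), with 4 genes at a raw p up to 0.05 and 4 called by DESeq2. By edgeR 1 of 11 was called, beside 2.28% of all tested genes. This was the integrin Itgal, which fell, with 80.8 ± 1.92 CPM in WT (SD, n = 3) against 58.4 ± 2.52 CPM in KO (SD, n = 2) (edgeR adjusted p 0.0446). Alveolar macrophage genes had a median of 0.00 (-0.10 without KO1), with 6 genes at a raw p up to 0.05 and 4 called by DESeq2. In 3 of them every KO library was below every WT library, and in 3 every one was above. By edgeR 1 of 11 was called, beside 2.28% of all tested genes. This was the mannose receptor Mrc1, which fell, with 53.1 ± 4.37 CPM in WT (SD, n = 3) against 35.9 ± 0.579 CPM in KO (SD, n = 2) (edgeR adjusted p 0.0474). The myeloid list summed to 4664, 5094 and 5517 CPM in the WT libraries and 6086, 5773 and 5764 CPM in the KO libraries, most of it Lyz2, which alveolar type 2 cells also express. Per 1000 CPM of this sum Cd300ld was at 2.08 to 2.29 CPM in WT and 1.22 to 1.26 CPM in KO, and Cd300a, Cd300e and Cd300lb were apart as well, while Cd300lf and Cd300c again overlapped. This rested on Lyz2, which made up 89.6% to 94.0% of the sum. Without Lyz2, a choice made after the values were seen, the list summed to 458, 466 and 575 CPM in the WT libraries and 364, 401 and 404 CPM in the KO libraries, now lower in every KO library. Per 1000 CPM of that sum Cd300a was at 40.1, 33.7 and 29.2 CPM in WT and 38.7, 34.8 and 34.3 CPM in KO. Cd300a, Cd300e, Cd300lb, Cd300lf and Cd300c overlapped on this scale, and only Cd300ld stayed apart, at 23.3, 22.7 and 20.8 CPM in WT and 20.3, 18.1 and 18.0 CPM in KO. The part of these cells in the CD300 values was not tested.

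Among the most abundant genes of these lists, the edgeR adjusted p values were those of Laptm5 and Coro1a (0.912 and 0.726) for leukocytes, Lyz2 and Csf1r (0.119 and 0.0546) for myeloid cells, Fn1 and Plac8 (0.534 and 0.461) and Ace and Cd36 (0.487 and 0.144) for classical and non-classical monocytes, Lyve1 and C1qa (0.935 and 0.729) and Car4 and Chil3 (0.0926 and 0.329) for interstitial and alveolar macrophages, S100a9 and Csf3r (0.643 and 0.414) for neutrophils and Zbtb46 and Itgax (0.846 and 0.476) for dendritic cells. Cd36 and Car4 are also in the list of fat, heart and muscle capillaries, and Lyve1 is in the lymphatic list. Ace and Cd36 averaged 1134 and 1185 CPM in WT, where the whole non-classical monocyte list summed to 2696 to 2741 CPM. The values of the shared genes therefore do not stand for monocytes or macrophages alone.

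All members lie on chromosome 11, as does the deleted gene. Cd300lg begins 3.48 Mb beyond the end of Zpbp2 and the CD300 cluster 16.3 Mb beyond it. Among the 10 tested genes nearest to Cd300lg, 5 on each side and up to 256 kb away, 1 was called, beside 2.28% of all tested genes. Their median log2 difference was 0.02. The 9 others ranged from -0.32 to 0.58. The called gene was Meox1, a homeobox gene 147 kb before Cd300lg (minus strand, 101877510 to 101894374), at 21.8, 19.9 and 20.9 CPM in the WT libraries and 11.1, 10.6 and 10.4 CPM in the KO libraries. Meox1 fell in KO with a log2 difference of -0.95 (SE 0.08) and an edgeR adjusted p of 0.0446. The adjoining genes Mpp3 and Mpp2, 13.05 kb before and 1.40 kb after Cd300lg, had log2 differences of -0.27 and -0.17 with edgeR adjusted p values of 0.262 and 0.182. In Meox1, Dusp3, Mpp3 and Mpp2 every KO library was below every WT library, as in 20.7% of all tested genes. In Ppy, Tmem101 and Lsm12 every KO library was above every WT library, and the other neighbours overlapped.

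Of the 10 tested genes nearest to the CD300 cluster, within 169 kb, 1 was called, beside 2.28% of all tested genes. Their median log2 difference was 0.27. The 9 others ranged from -0.12 to 1.42. The called gene was Nat9, 48.8 kb beyond the cluster, which rose, with 22.02 ± 1.23 CPM in WT (SD, n = 3) against 31.1 ± 0.567 CPM in KO (SD, n = 2) (edgeR adjusted p 0.0474). Within the cluster the 6 members lay below 0, as did Rab37 at -0.34 (all KO libraries under the WT range, edgeR adjusted p 0.246), and Cd300ld3 at -0.21, while Cd300c2 lay at 0.05.

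**Figure D5:**
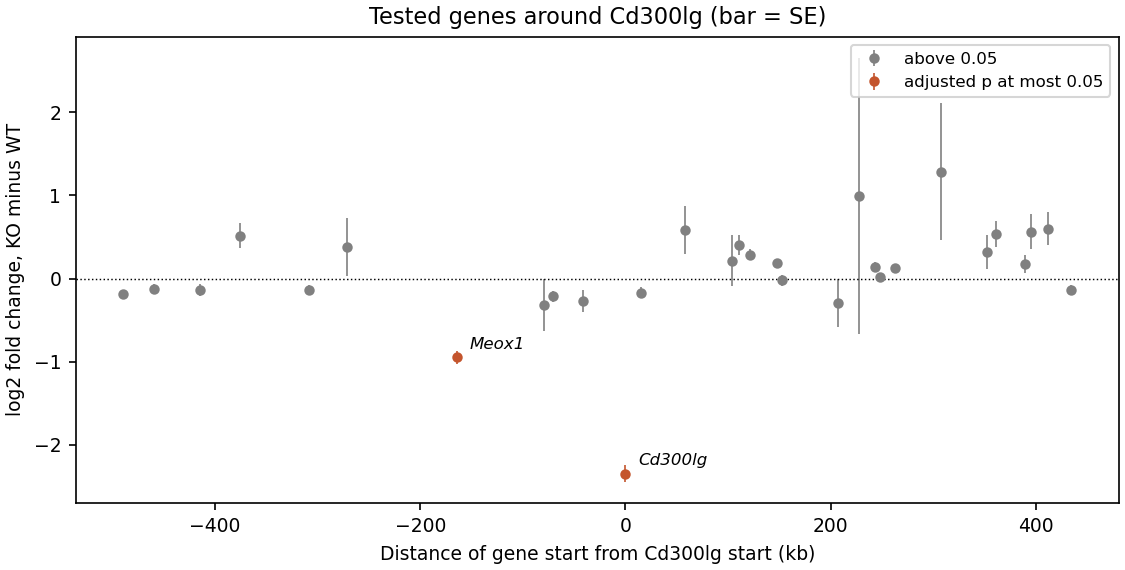
Log2 difference between KO and WT, with SE, of the tested genes that start within 500 kb of the start of Cd300lg, by distance in kb. Cd300lg at -2.35 and Meox1 at -0.95 (orange) are the genes with an adjusted p of at most 0.05.

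The genes whose levels over the 6 libraries were most like those of Cd300lg were Lpl, Atf6, Tnfrsf11b, Arhgap28 and Ptch1, with Pearson r between 0.997 and 0.998 on log2(CPM + 0.1) among 15148 genes with a mean of at least 1 CPM. They share the gap between the genotypes and small differences within each, and 51 genes reached an r of 0.99, so this is a description of 6 libraries only. Ptch1, the Hedgehog receptor, for example, was at 81.9, 84.0 and 82.6 CPM in the WT libraries and at 50.3, 52.6 and 50.3 CPM in the KO libraries, which is a description since this likeness chose it. Those most like Cd300a were Nppa, Cilp2, Tnxb, Svil and Inppl1, with r from 0.993 to 0.998. Nppa, an atrial hormone gene, was at 1469.7, 146 and 322 CPM in the WT libraries and at 22.3 to 23.9 CPM in KO, thus highest in WT1 as Cd300a was.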

How the data were processed

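Lung RNA was sequenced in 6 libraries, and the authors deposited raw read counts per gene, 1 column per library. Per the labels and the methods of the study, the authors trimmed and filtered the reads, aligned them to GRCm38 and counted them per gene with HTSeq. The submitters' processing notes list Trimmomatic 0.36, STAR 2.5.3a, Picard 2.9.0 and HTSeq 0.6.0. The annotation release, read length and strand setting were not given in the sources used here, so counts of overlapping genes are uncertain. Coordinates and exon lengths came from GENCODE M21 on GRCm38, which held 97.5% of the gene identifiers.

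Counts were fitted in R 4.3.3 with edgeR 4.0.16: filterByExpr, TMM scaling over the libraries and the quasi-likelihood test, two-sided, with Benjamini-Hochberg adjustment over all 18660 tested genes. Standard errors were computed by dividing each estimate by the square root of its F value. DESeq2 1.42.0 served as an alternative. The script was tested on simulated data. KO2 and KO3 were summed, as they were the pair closest to counting noise. The labels do not say that libraries came from separate mice, but the methods of the study do. The number of samples limits precision, and duplicate reads are not independent molecules.

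The members and all 22 gene lists were chosen with earlier results of these data known. Genes named are the members, other CD300 genes, up to 3 called and the 2 most abundant genes of each list, those called among the 5 tested genes nearest on each side of Cd300lg and of the cluster (the rest by range), the 5 genes most like Cd300lg and Cd300a, and Zpbp2. Spi1, Tyrobp, Fcer1g, Gpihbp1, Mpp2, Mpp3, Dusp3, Ppy, Tmem101, Lsm12, Rab37, Glycam1 and Madcam1 and the check genes Sftpc and Scgb1a1 were named after their values were seen. The values of 1 list gene are not reported here. Alternatives were other scalings, filters, a length offset, 6 separate libraries, a replicate block and leaving out libraries.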

Additional observations from a re-analysis of the deposited data

How the results depend on the processing

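Over 15 alternatives the log2 difference of Cd300lg stayed below 0, from -2.44 to -2.25. It was -2.44 with a gene length offset and -2.25 without WT3 and KO1, and leaving out 1 library at a time gave -2.37 to -2.26. The other members also stayed below 0, except Cd300lf, at 0.09 without WT1. Cd300ld ranged from -0.69 to -0.54, Cd300e from -0.63 to -0.47, Cd300lb from -0.39 to -0.27, Cd300a from -0.33 to -0.21 and Cd300c from -0.44 to -0.04.

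The number of genes called, 426, was 3402 with 6 libraries kept separate, 937 with a minimum of 10 counts per library, 3889 with DESeq2, 4 with the length offset and 2256 without WT3 and KO1. Leaving out 1 library gave 0 to 418. It was 0 without any one WT library, where 3346 to 4193 genes had a raw p up to 0.05, and 17 without KO1. Without KO1, and without WT3 and KO1, KO is 1 sample that is assumed to vary like the WT samples, so those calls rest on the spread of WT alone. The cause was not tested. Scaling by library size alone gave 306, of which 38.2% were higher in KO in place of 60.3%. Of the 7 members, 1 was called, beside 2.28% of all tested genes. This became 4 with 6 libraries kept separate (18.9% of all genes), 5 with DESeq2 (20.8% of the genes edgeR tested), 2 with the count minimum of 10 (5.54%), 2 without WT3 and KO1 (11.9%) and 0 without any one WT library. These counts of members, the count without WT3 and KO1 of members whose groups do not overlap, the mast cell sum without Kit and the myeloid sum without Lyz2 were added after seeing the data. The length offset moved the medians of phosphatidylserine recognition to -0.04, of alveolar macrophage genes to -0.15 and of myeloid genes to -0.30, and scaling by library size alone turned the aerocyte and arterial medians to -0.01 and -0.03.

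The replicate numbers are names only: deviations from the group means correlated at -0.66, 0.71 and -0.79 for numbers 1 to 3, so they did not pair the samples. Across numbers, WT3 and KO1 correlated at 0.85, and WT1 and WT2 correlated with KO2 and KO3 at 0.61 to 0.71. The replicate block follows the numbers and not this split. With the replicate block on 6 separate libraries Cd300lg was at -2.32, 2 members were called and 1157 genes in all, 6.42% of those tested.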
